A study of Mus musculus with 884 samples.

Results

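Mouse chromosome 8 was followed bin by bin through a differentiation of embryonic stem cells, in all of its 80 kb bins of the deposited call table outside chr8:43680001-45120000 (mm9). These are 1628 of the 1646 bins of the chromosome and of 30890 autosomal bins in all, and 18 bins were left out by position. Chromosome 8 was selected on measured values, the excess of bins that replicated earlier on d7 than on d0 in these same cells, so its d7-minus-d0 counts are a description and support nothing. The values on d2 to d6, in epiblast stem cells (EpiSCs) and in cells of other replication scores took no part in that choice. Around the interval left out, the last bin before it was replicated in 11.9% of d7 and 15.3% of d0 cells and the first left-out bin in 10% of d7 and 18.6% of d0 cells. Beyond it, the last left-out bin was replicated in 9.90% of d7 and 32.2% of d0 cells and the first bin after it in 9.90% of d7 and 11.9% of d0 cells.

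The genome of a dividing mouse cell is copied in domains that start at characteristic times of S phase. Early domains are on the whole gene-rich, open and transcribed, and late domains compact, gene-poor and often attached to the nuclear lamina. As embryonic stem cells differentiate, many domains change their time of replication, and this often goes along with a move within the nucleus and with a change in transcription, neither of which was measured here. Chromosome 8 has its centromere at its low-coordinate end, and gain of a whole copy of it is a common change in cultured mouse embryonic stem cells.

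Replication was measured with single-cell Repli-seq, in which 1 sorted cell is amplified and sequenced and each bin is called replicated, not replicated or without data. The groups were CBMS1 female embryonic stem cells labelled CBA/MsM in 2i/LIF medium (d0), later days of that line, namely d2 (epiblast-like cells), d3, d4, d5, d6 and d7 (floating aggregates in plain GK15 medium, a course towards neurectoderm), and female EpiSCs labelled C57BL6 and grown in Activin/FGF. All CBMS1 cells thus share 1 hybrid line, and EpiSCs differ from them in strain as well as in state and medium, which cannot be told apart. The calls carry no expression, so the cell type of each group was not checked against markers.

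Timing was read in S-phase cells with a replication score, the percentage of called autosomal bins that are replicated, of 40 to 70%. The window held 293 of 805 S-phase cells. It took in 59 cells of d0, 35 of d2, 13 of d3, 18 of d4, 20 of d5, 21 of d6 and 26 EpiSCs, and on d7 it held 35 cells that had been deposited in a previous series and 66 new ones. Percentages of d7 cells below are of these 35 and 66 together, less at most 2 cells without a call. Of the d0 cells, 50 were from the previous series and 9 were new. All cells of d2 to d6 and all EpiSCs were new. Comparisons of those groups with d0 thus differ in series as well as in state, which cannot be told apart. The cells nearest the lower limit of the window scored 40.1% inside and 39.8% outside, and those nearest its upper limit 69.8% inside and 70.1% outside. No label names separate cultures, so each group is 1 sample, no test was run, and the intervals below, exact 95% intervals of the binomial share (Clopper-Pearson), cover counting error alone. The share of a bin is the percentage of a group's window cells with a call in which it was replicated. A bin was called earlier or later where its share differed by 0.3 or more between groups (30 percentage points), and 5 or more adjacent called bins made a region. A region was counted as replicated in a cell where over 50% of its called bins were.

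Shares could be taken in every group for 1536 of the 1628 bins. The other 92 lie in 3 stretches, chr8:1-3120000, chr8:19920001-22560000 and chr8:56240001-57840000, where fewer than 50% of the window cells of at least 1 group had a call. Across the window cells, the median number of chromosome 8 bins called was 1537 to 1545 by group. The lowest number in a single cell was 748, on d7.

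In a small number of cells the whole of chromosome 8 stood apart from the other autosomes. In all but 11 of the 293 window cells the percentage of chromosome 8 replicated lay within 18.4 points of that of the other 18 autosomes. Those 11 cells differed by at least 26.5 points, with none between. In 5 of them, all on d7, chromosome 8 was 75.8 to 99.3% replicated where the other autosomes were 40 to 67.4% replicated. In the other 6, of which 2 were on d7, 1 each on d3, d4 and d6 and 1 on d0, chromosome 8 was 1.69 to 14.7% replicated and the other autosomes 44.6 to 64.1%. Counted as a deviation of over 20 points from each group's median, these 11 cells were more than for any other autosome, the next being chromosome 12 with 7. Whether such cells hold another number of copies of chromosome 8 was not tested. A different copy number and a different replication state cannot be told apart in these calls.

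**Figure D1:**
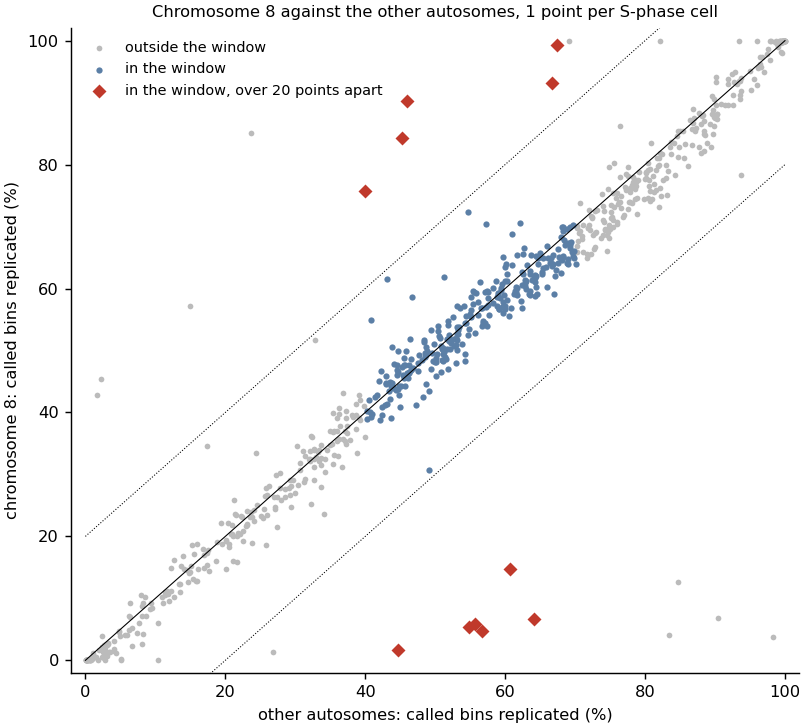
Each point is 1 S-phase cell, with the percentage of called bins replicated on the other 18 autosomes (x axis) and on chromosome 8 (y axis). The solid line marks equal percentages and the dotted lines 20 points above and below. Most cells lie along the diagonal, and the 11 window cells beyond the dotted lines (diamonds) lie far from it, 5 above and 6 below.

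Chromosome 8 replicated slightly behind the rest of the genome in most cells on d0 and slightly ahead in most cells on d7 and in EpiSCs. The median lead, chromosome 8 minus the other autosomes in percentage points, was -1.88 on d0, -0.96 on d2, -1.62 on d3, -1.93 on d4, -1.02 on d5, -1.41 on d6, 0.67 on d7 and 0.51 in EpiSCs. Quartiles over cells were -1.47 to 3.22 on d7, against -2.96 to -0.40 on d0, and -1.81 to 2.18 in EpiSCs. The lead was above 0 in 67 of the d7 cells, against 11 of 59 d0 cells, and in 16 of 26 EpiSCs. Among the 19 autosomes the median lead of chromosome 8 ranked 9 on d7 and 9 in EpiSCs, against 12 on d0. From d0 to d7 it rose by 2.55 points, against 2.56 for chromosome 11, 2.37 for chromosomes 2 and 19, and -6.60 for chromosome 17. The chromosome was chosen for its change from d0 to d7 in these same cells, so nothing is read from this rise. Without the 11 cells that stand apart, the medians were 0.64 on d7 and -1.84 on d0. By origin of the cells, they were 0.62 on d7 and -2.26 on d0 in cells of the previous series, and 0.72 on d7 and -0.18 on d0 in the 66 and 9 cells of the present series, a smaller shift.

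Large parts of the chromosome kept their timing through all 8 groups. Of the 1536 bins with a share everywhere, 414 (27%) were replicated in at least 80% of cells of every group and 309 (20.1%) in at most 20% of cells of every group. On the other autosomes the same classes held 25.7% and 13.8% of 27990 bins. The range of a bin's share over the 8 groups had a median of 22 points on chromosome 8 and 27.1 points elsewhere. It reached 50 points in 270 chromosome 8 bins (17.6%), against 22.4% of the bins elsewhere.

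The 3 longest stretches that stayed early were chr8:108160001-110320000 and chr8:123920001-126080000, each 2160 kb, and chr8:96480001-98560000, 2080 kb. The first was replicated in 92.5% of cells on d0, 99.8% on d2, 92.3% on d3, 90.9% on d4, 99.6% on d5, 95.2% on d6, 98.3% on d7 and 99.6% of EpiSCs. The second ranged from 86% on d4 to 100% on d2 and d5, and the third from 88.5% on d3 to 99.7% on d2. All 3 lie in the part of the chromosome away from the centromere.

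The 3 longest stretches that stayed late were chr8:52160001-55120000 and chr8:102000001-104960000, each 2960 kb, and chr8:38720001-40960000, 2240 kb. The first was replicated in 6.41% of cells on d0, 1.70% on d2, 3.12% on d3, 5.98% on d4, 0% on d5, 0.64% on d6, 5.41% on d7 and 3.53% of EpiSCs. The second ranged from 0% on d6 to 6.24% on d3 and the third from 0% on d6 to 9.52% on d0. In d7 cells these 3 stretches were late in the same way as on d0, with mean shares of 4.66 to 5.41% on d7, against 4.21 to 9.52% on d0.

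Early and late domains were drawn by splitting the profile at a share of 50% and joining runs under 5 bins to their neighbours. The chromosome had 49 domains on d0, 52 on d2, 54 on d3, 54 on d4, 45 on d5, 44 on d6, 39 on d7 and 42 in EpiSCs. Early domains covered 60.8% of the mapped length on d7, against 55.5% on d0, and 58.9% in EpiSCs. The longest early domain was 13200 kb on d7, chr8:85520001-98720000, against 8880 kb on d0, chr8:121520001-130400000. In EpiSCs it was 13280 kb, chr8:85520001-98800000, nearly the same stretch as on d7. Boundaries between early and late domains numbered 2.76 per 10 Mb on d7, against 3.64 on d0, and 3.07 in EpiSCs. The other autosomes had 2.85 per 10 Mb on d7, against 3.60 on d0, and 3.27 in EpiSCs, so the fall in number was of similar size there. The fall on chromosome 8 depended on how domains were drawn. With early set at a share of 60% or more there were 44 domains on d7 and 43 on d0, and with runs under 10 bins joined there were 35 on d7 and 35 on d0, so that it was absent under both. Without the 11 cells that stand apart, there were 43 on d7 and 47 on d0, a smaller difference.

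At d7 against d0, 10.8% of the 1542 compared bins of chromosome 8 were earlier and 4.28% (66 bins) were later. Over all autosomes the background was 7.75% earlier and 7.71% later. The chromosome was chosen for this excess, so nothing is read from it. The mean share over the chromosome was 58.1% on d7 and 53.8% on d0, and over the other autosomes 56.4% on d7 and 56.6% on d0. By whole chromosome, with the left-out bins included, chromosome 13 had a higher percentage of earlier bins (12.1%) and chromosome 11 a higher part of earlier bins among its changed ones (73.9%). At the edge of the rule, the smallest called gain was 30.2 points and the largest gain not called 29.9 points. For losses the corresponding differences were -30.1 and -29.7 points.

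The lean towards earlier replication depended on which cells were compared. Without the 11 cells that stand apart, 10.6% of bins were earlier and 5.32% later, beside 8.05% and 7.86% over all autosomes, so that 66.5% of the changed bins were earlier, against 71.6% with them. In cells already deposited in a previous series (35 on d7 and 50 on d0), 13.5% of bins were earlier and 4.23% later, beside 10.1% and 7.87% over all autosomes. In cells new to the present series (66 on d7 and 9 on d0), 11.8% of bins were earlier and 13.7% later, beside 12.4% and 15.1%, and 46.3% of the changed bins were earlier. In the present series alone the chromosome was thus not mostly moving earlier. Of its 9 d0 cells, 3 ranked the bins poorly against the mean profile of their group (area under the curve below 0.8). The part of this in the result was not tested.

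**Figure D2:**
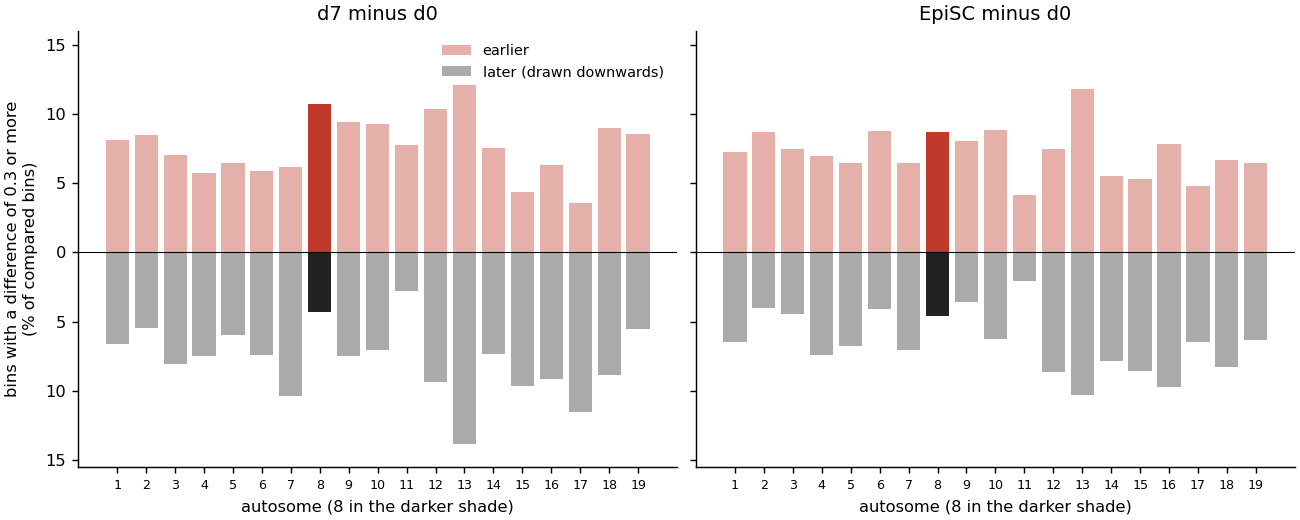
Bars give the percentage of compared bins per autosome that were earlier (upwards) or later (downwards) by 0.3 or more in share, for d7 minus d0 (left) and EpiSC minus d0 (right). Chromosome 8, in the darker shade without the bins left out, had 10.8% earlier and 4.28% later for d7 and 8.74% earlier and 4.60% later for EpiSC.

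The earlier bins gathered in 12 regions that held all but 22 of them, with a median length of 640 kb. The 2 longest, of 3200 and 2400 kb, held 70 bins between them. The later bins formed 5 regions of 400 to 720 kb that held 36 of the 66 bins. By position, the first 20 Mb held 51 earlier and 17 later bins and the stretch from 100 to 120 Mb held 44 earlier and 1 later. From 40 to 60 Mb, 5 bins were earlier and 10 later, and from 60 to 80 Mb, 14 were earlier and 19 later. At d0, 11 of the 12 earlier regions had an early neighbour, with a mean share of 50% or more over the 5 bins next to them, on 1 side (8 regions) or both sides (3). Of the 5 later regions, 4 had an early neighbour on 1 side and none on both, and 1 of the 4 adjoins a stretch without calls on its other side.

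**Figure D3:**
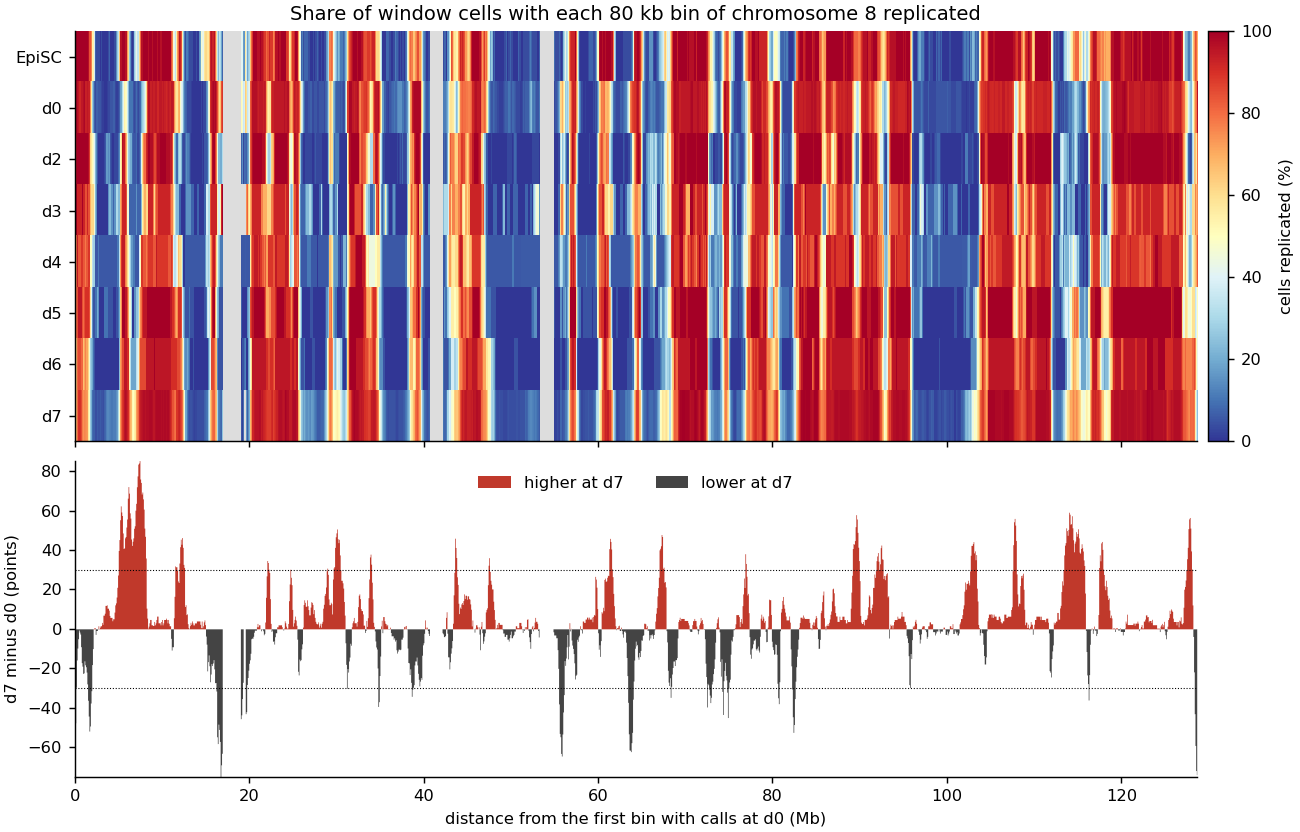
The upper panel shows the percentage of window cells with each 80 kb bin replicated, from blue (late) to red (early), for EpiSCs and for d0 to d7 from top to bottom, along the distance from the first bin with calls on d0. Grey marks bins without a share or left out, and the lower panel gives d7 minus d0 in percentage points with dotted lines at 30 and -30. Gains are widest near the left end, where the longest earlier region holds 40 bins, and most of the chromosome lies between the dotted lines.

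The region with the largest gain was also the longest, chr8:8000001-11200000, with 40 bins. Its mean share was 22.6% on d0, 41.8% on d2, 41.5% on d3, 52.6% on d4, 60.8% on d5, 63.6% on d6, 80.8% on d7 and 67% in EpiSCs. Over 50% of its bins were replicated in 92 of the d7 cells (91.1%, interval 83.8 to 95.8%), against 9 of 59 d0 cells (15.3%, 7.22 to 27%), and in 22 of 26 EpiSCs (84.6%, 65.1 to 95.6%). The whole region was replicated in 26 d7 cells and in 0 d0 cells and 0 EpiSCs. It is bordered on d0 by a late stretch on the centromeric side (2.03%) and an early one on the other (93.2%).

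Inside this region the timing was uneven. The first block, chr8:8000001-8400000, was replicated in 15.3% of cells on d0, 49.1% on d2, 68.9% on d4 and 67.7% on d7. The block after it, chr8:8400001-8800000, was replicated in 46.8% of cells on d0, 91.4% on d2, 87.8% on d4 and 93.6% on d7. At the other end, chr8:10800001-11200000 was replicated in 44.6% of cells on d0, 82.3% on d2, 82.2% on d4 and 96.7% on d7. The middle block chr8:9600001-10000000 was replicated in 4.45% of cells on d0, 6.29% on d2, 8.89% on d4, 20% on d6 and 55.2% on d7. The middle thus passed 50% only on d7, whereas the blocks at 8.4 and 10.8 Mb were replicated in most cells by d2. In EpiSCs these 2 blocks were at 98.5% and 100%, while the block chr8:9200001-9600000 was replicated in 9.23% of EpiSCs, against 10.5% of d0 cells and 64.8% of d7 cells.

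**Figure D4:**
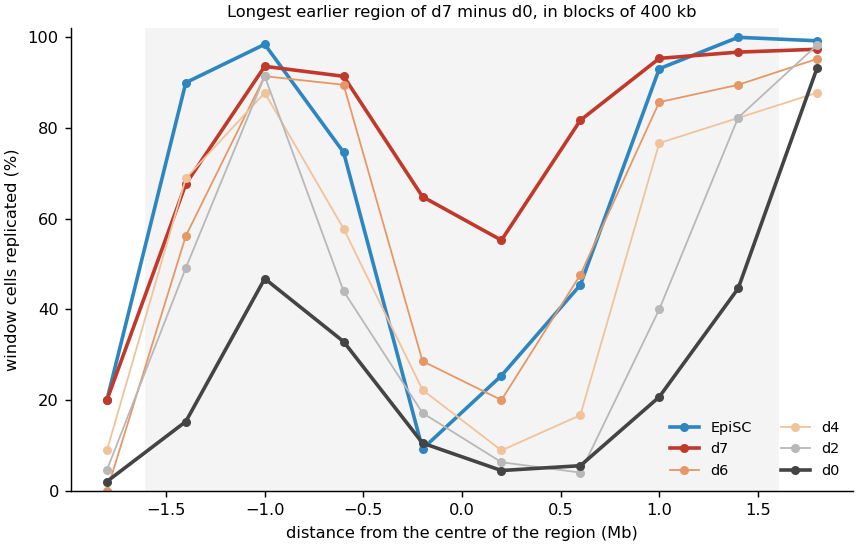
Lines give the percentage of window cells replicated in blocks of 400 kb against the distance from the centre of the longest earlier region (shaded), for EpiSCs, d7, d6, d4, d2 and d0. The d0 line peaks at 46.8% inside the region, the d7 line stays at or above 55.2% inside it, and the EpiSC line dips to 9.23% next to the centre.

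The second gain by size was the short region chr8:110560001-110960000, 5 bins within a mostly early part of the chromosome. Its share was 40% on d0, 45.14% on d2, 33.8% on d3, 60% on d4, 51% on d5, 79% on d6, 90.1% on d7 and 91.5% in EpiSCs. It was replicated in 89 of the d7 cells (89.9%, 82.2 to 95%), against 20 of 59 d0 cells (33.9%, 22.1 to 47.4%). It is bounded by early bins on both sides on d0 (84.1% and 70.5%), so it is a dip in an early domain on d0 that is barely visible on d7.

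The region chr8:92160001-92960000 behaved in a like way. Its share was 45.9% on d0, 28% on d2, 33.8% on d3, 48.3% on d4, 76.5% on d5, 89% on d6, 92.1% on d7 and 80.4% in EpiSCs. Over 50% of it was replicated in 92 of the d7 cells (91.1%, 83.8 to 95.8%) and in 24 of 59 d0 cells (40.7%, 28.1 to 54.3%). Its d0 neighbours were early on both sides (83.4% and 87.1%), and with its gain the 13200 kb early domain of d7 runs through it. In present-series cells alone the difference was 23.4 points (91.2% on d7 and 67.8% on d0), below the size rule.

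The second-longest region, chr8:116400001-118800000 with 30 bins, lay in a broad late domain on d0. Its share was 15% on d0, 13.3% on d2, 11% on d3, 22.8% on d4, 43.8% on d5, 41.1% on d6, 60.9% on d7 and 54.5% in EpiSCs. Among single cells it was replicated in 66 of the d7 cells (65.3%, 55.2 to 74.5%), against 5 of 59 d0 cells (8.47%, 2.81 to 18.7%). Unlike the longest region, its highest d7 share was in the middle, 73% in chr8:117200001-117600000, and its lowest at the telomeric end, 47.3%. On that side the adjoining 400 kb differed by less than the size rule, with shares of 51.3% on d7 and 60.3% on d0.

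Near the end of the chromosome, chr8:130480001-131120000 was replicated in 33.5% of cells on d0, 12.9% on d2, 42.3% on d3, 33.3% on d4, 50.6% on d5, 78% on d6, 78.6% on d7 and 27.9% of EpiSCs. In 82 of the d7 cells it was replicated (81.2%, 72.2 to 88.3%), against 14 of 59 d0 cells (23.7%, 13.6 to 36.6%) and 5 of 26 EpiSCs (19.2%, 6.55 to 39.4%). Of the named regions of this comparison it had made the smallest part of its d0-to-d7 change by d4, -0.31%.

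The last of the 6 largest gains, chr8:32640001-33440000, was late in every group but d7. Its share was 8.98% on d0, 8.0% on d2, 11.5% on d3, 11.1% on d4, 4.50% on d5, 33.8% on d6, 51.2% on d7 and 23.5% in EpiSCs. By cells, it was replicated in 55 of the d7 cells (54.5%, 44.2 to 64.4%), against 4 of 59 d0 cells (6.78%, 1.88 to 16.5%). In present-series cells alone its share was 49.8% on d7 and 36.7% on d0, a difference of 13.2 points, against 49.7 points in previous-series cells (53.7% on d7 and 4.0% on d0). The present-series d0 share rests on 9 cells, of which 3 ranked the bins poorly against the mean profile of their group. No difference between the series is read from it.

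The other 6 earlier regions were chr8:14960001-15600000, chr8:64240001-64640000, chr8:70000001-70560000, chr8:95280001-95680000, chr8:105680001-106400000 and chr8:120400001-120960000. Their shares were 48.1 to 74.3% on d7, against 8.10 to 34.2% on d0. Among all 12 earlier regions, the difference kept its sign in present-series cells but reached 30 points in 4, and it ranged there from 4.83 to 41.2 points. These cells are part of those that chose the regions. In previous-series cells all 12 reached 30 points, with a range of 43.8 to 66.4. Without the 11 cells that stand apart the range was 36.6 to 59.1 points.

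Of the later regions, chr8:19200001-19920000 lost most. It was replicated in 77.1% of cells on d0, 28.9% on d2, 64.9% on d3, 23.5% on d4, 12.2% on d5, 10.1% on d6, 20.4% on d7 and 27.8% of EpiSCs. Over 50% of its bins were replicated in 12 of the d7 cells (12%, 6.36 to 20%), against 49 of 59 d0 cells (83.1%, 71 to 91.6%). It borders the stretch without calls that begins at 19920001, so its far end is unknown. The difference was -56.6 points in previous-series and -71.2 points in present-series cells. The d0 share was 74.2% in the 50 previous-series cells and 93.1% in the 9 present-series cells, too few to read a difference between the series.

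The region chr8:66400001-67040000 was replicated in 77.3% of cells on d0, 29.6% on d2, 42.3% on d3, 20.1% on d4, 19.4% on d5, 8.93% on d6, 24.6% on d7 and 20.7% of EpiSCs. Counted by cells, it was replicated in 20 of the d7 cells (19.8%, 12.5 to 28.9%) and in 48 of 59 d0 cells (81.4%, 69.1 to 90.3%). By d4 it had made 108.5% of its d0-to-d7 change, the largest part among the named regions, and 90.5% by d2. It lies between a late stretch (21% on d0) and an early one (91.9% on d0), and the early neighbour was still replicated in 78.5% of d7 cells.

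In chr8:58480001-59120000 the share was 57.4% on d0, 33.2% on d2, 63.5% on d3, 24.3% on d4, 13.1% on d5, 2.38% on d6, 7.12% on d7 and 13.9% in EpiSCs. Over 50% of it was replicated in 5 of the d7 cells (5.0%, 1.64 to 11.3%), against 35 of 59 d0 cells (59.3%, 45.7 to 71.9%). None of 26 EpiSCs had over 50% of it replicated. The exact interval for this percentage of cells is 0 to 13.2%, where 3 cells would be 11.5%. The flanking bins were late on d0 as well (11.5% and 29.5%), so it is an island of middling timing in a late part of the chromosome that became late too.

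The remaining later regions parted in EpiSCs. In chr8:85200001-85600000 the share was 79.3% on d0, 55.4% on d2, 78.5% on d3, 56.7% on d4, 64% on d5, 32.4% on d6, 37% on d7 and 21.5% in EpiSCs. In chr8:4480001-4960000 it was 75.4% on d0, 73.3% on d2, 74.4% on d3, 60.2% on d4, 65% on d5, 36.5% on d6, 33.7% on d7 and 80.1% in EpiSCs. The first was replicated in 37 of the d7 cells (36.6%, 27.3 to 46.8%) and 52 of 59 d0 cells (88.1%, 77.1 to 95.1%). The second was replicated in 27 of the d7 cells (27%, 18.6 to 36.8%) and 46 of 59 d0 cells (78%, 65.3 to 87.7%), and in 20 of 26 EpiSCs (76.9%, 56.4 to 91%). In present-series cells the loss at 85.2 Mb was -24.5 points, below the size rule.

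**Figure D5:**
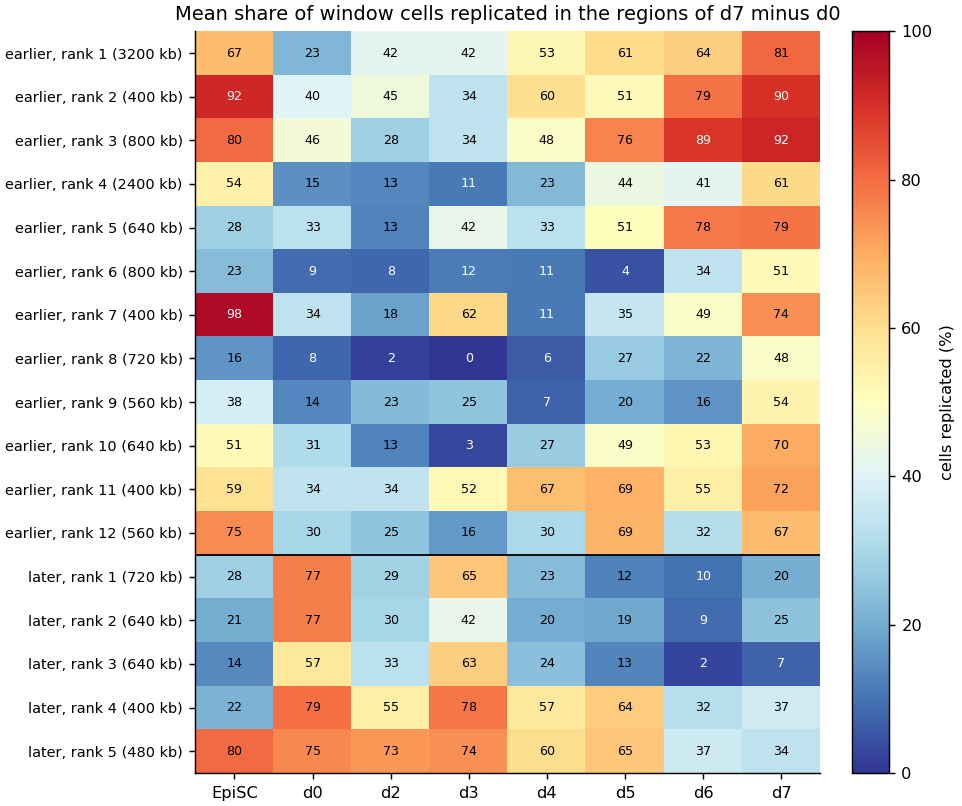
Each row is 1 of the 12 earlier and 5 later regions of d7 minus d0, ordered by the size of the mean difference, and each cell gives the mean percentage of window cells replicated in EpiSCs and on d0 to d7. On d4, 3 of the 5 later regions were below 30%, while 9 of the 12 earlier regions were still below 50%.

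Over the course of differentiation the mean shares of the 2 directions changed at different times, though single regions departed from these means. The earlier bins had a mean share of 26.1% on d0, 25.7% on d2, 28.6% on d3, 36.3% on d4, 51.1% on d5, 54.8% on d6 and 71.8% on d7. The later bins had a mean share of 74.8% on d0, 46.1% on d2, 64.5% on d3, 39% on d4, 34% on d5, 23% on d6 and 29.1% on d7. By d2, 62.7% of the loss but -0.91% of the gain had been made, and by d4, 78.4% of the loss and 22.2% of the gain. On d3 the values were 22.5% of the loss and 5.49% of the gain, so the loss was not steady. The mean score of the cells moved with this, at 52.3% on d2, 53.7% on d3 and 53.4% on d4, against 56.4% on d7 and 56.3% on d0, and its part was not tested for these means. The d3 values rest on 13 cells. By d2 the 5 later regions had made 5.01 to 90.5% of their change and the 12 earlier ones -45.9 to 33%, so the regions overlapped. The mean share of the other autosomes also changed from d0 to d2, by -4.14 points, which was not taken off the means above. In single cells, a median of 9 of the 12 earlier regions was replicated on d7, 7 in EpiSCs and 2 on d0, and of the 5 later regions a median of 1 on d7, 1 in EpiSCs and 4 on d0.

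Counted against d0 by the same rule, bins of chromosome 8 were more often later than earlier on every day before d7, and so were bins over all autosomes. These comparisons share the d0 cells, most of them from the previous series, whereas all d2 to d6 cells were new. On d2, 1.68% of its bins were earlier and 5.05% later, beside a background over all autosomes of 1.54% and 6.98%. For d3 the values were 2.73% earlier and 6.12% later (background 5.06% and 8.79%), and for d4 2.39% and 7.18% (3.23% and 7.02%). The d5 cells had 5.44% earlier and 5.89% later (4.4% and 6.15%), and the d6 cells 5.50% and 8.22% (6.11% and 8.81%). Most of these shares lie near the background, and no lean of chromosome 8 is read from them.

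The excess of later bins on these days changed with the cells compared. With d0 cells matched to each group, 3.11% of bins were earlier and 3.30% later on d2, beside 2.62% and 4.48% over all autosomes in the same cells. The matched values were 5.01% and 5.66% for d3 (8.34% and 9.03%), 3.88% and 5.11% for d4 (5.33% and 5.36%), and 5.57% and 7.31% for d5 (5.17% and 7.86%). For d6 they were 7.18% and 6.21% (7.36% and 7.68%), where the lean turned. With a window of 45 to 65% it turned on d3, d4 and d5, at 7.60% earlier and 4.42% later for d3 (9.19% and 6.74%, from 7 cells), 5.57% and 3.88% for d4 (6.09% and 4.39%), and 8.48% and 5.89% for d5 (7.09% and 5.91%). Without the cells that stand apart, 3.70% were earlier and 5.59% later on d3 (5.17% and 8.02%), where 1 of 13 cells was left out. Along the chromosome, the correlation of each day's profile with that of d7 was 0.87 for d2, 0.81 for d3, 0.90 for d4, 0.95 for d5 and 0.97 for d6 over 1536 to 1542 bins, which are neighbours and not independent. The correlation with d0 was 0.94 for d2, 0.91 for d3 and d4, 0.90 for d5, 0.88 for d6 and 0.85 for d7.

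In EpiSCs against d0, 8.74% of 1545 bins were earlier and 4.60% (71 bins) were later, beside a background of 7.36% earlier and 6.34% later. In cells matched in score, 26 EpiSCs against 26 d0 cells, 6.41% were earlier and 6.47% later, beside 6.45% and 8.39% over all autosomes, so the excess of earlier over later bins was lost. With a window of 45 to 65%, 13.2% were earlier and 3.30% later, beside 10.4% and 5.10% over all autosomes. All 26 EpiSCs were new and 50 of the 59 d0 cells were from the previous series, so state, strain and series cannot be told apart. The earlier bins formed 9 regions and the later ones 6.

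The 3 largest gains in EpiSCs were chr8:10160001-11200000, chr8:7920001-9200000 and chr8:63760001-64720000. The first was replicated in 25 of 26 EpiSCs (96.2%, 80.4 to 99.9%), against 16 of 59 d0 cells (27.1%, 16.4 to 40.3%), and the second in 25 of 26 EpiSCs and 14 of 59 d0 cells (23.7%, 13.6 to 36.6%). The first had a share of 85.8% in EpiSCs, against 26.2% on d0, with 47.7% on d2, 39.6% on d3, 66.7% on d4, 78.5% on d5, 80.2% on d6 and 93.8% on d7. The second had 84.4% in EpiSCs, against 29.9% on d0, with 58.2% on d2, 66.3% on d3, 67.7% on d4, 74.4% on d5, 74.1% on d6 and 80.9% on d7. They are both ends of the longest d7 region, and its middle is missing from the list. The third had a share of 97.1% in EpiSCs and 79.8% on d7, against 47.9% on d0, with 42.1% on d2, 56.4% on d3, 41.7% on d4, 59.6% on d5 and 59.5% on d6. Of the cells, 26 of 26 EpiSCs (100%, 86.8 to 100%) had it replicated, and 25 of 59 d0 cells (42.4%, 29.6 to 55.9%).

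The 3 largest losses in EpiSCs, chr8:85120001-85520000, chr8:66320001-66960000 and chr8:58480001-58960000, overlap 3 of the 5 later regions on d7, and both comparisons share the d0 cells. Their shares were 8.46%, 12% and 6.41% in EpiSCs, against 68.5%, 70.8% and 61.3% on d0. They were replicated in 1, 1 and 0 of 26 EpiSCs, against 45, 45 and 37 of 59 d0 cells. The shares of the first were 49.1% on d2, 61.5% on d3, 40% on d4, 52% on d5, 25.7% on d6 and 29.5% on d7. Those of the second were 21.4% on d2, 37.5% on d3, 14.6% on d4, 13.8% on d5, 5.95% on d6 and 19.6% on d7. The third had 33.3% on d2, 69.2% on d3, 27.8% on d4, 11.7% on d5, 2.38% on d6 and 6.83% on d7. In all 3 the d3 cells, 13 in number, lay above those of d2 and d4.

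EpiSCs and d7 cells differed at few places on chromosome 8. In EpiSCs against d7, 55 of 1542 bins (3.57%) were earlier and 64 (4.15%) later, beside a background of 5.74% and 4.9%. With a window of 45 to 65% 4.79% were earlier and 3.30% later, beside 7.15% and 3.99%, which turned the lean round. Regions numbered 3 earlier and 5 later in EpiSCs.

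Earlier in EpiSCs were chr8:4480001-5200000, chr8:17360001-18480000 and chr8:131280001-131680000. The first had a share of 69.7% in EpiSCs, against 25% on d7, with 55.9% on d0, 64.1% on d2, 68.4% on d3, 50% on d4, 46.1% on d5 and 28% on d6, so d7 stood away from d0 and EpiSCs did not. The second was late at every day, with shares of 18.2% on d0, 12.2% on d2, 18.1% on d3, 20.2% on d4, 14.6% on d5, 6.12% on d6 and 13.7% on d7, and had 55.8% in EpiSCs. It was replicated in 14 of 26 EpiSCs (53.8%, 33.4 to 73.4%), against 6 of the d7 cells (5.94%, 2.21 to 12.5%). The third, which holds the last bins of the chromosome, had 74.6% in EpiSCs and 33.8% on d7, with 87.8% on d0, 69.5% on d2, 77.8% on d3, 75.6% on d4, 43% on d5 and 50.9% on d6.

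Later in EpiSCs were chr8:129920001-131040000, chr8:9120001-9760000 and chr8:82480001-83120000. The first had a share of 25% in EpiSCs, against 79.8% on d7, with 48.2% on d0, 29.6% on d2, 47.8% on d3, 40.9% on d4, 51.4% on d5 and 77.2% on d6. Among single cells it was replicated in 4 of 26 EpiSCs (15.4%, 4.36 to 34.9%), against 82 of the d7 cells (81.2%, 72.2 to 88.3%). The end of the chromosome thus held 2 regions close to each other that differed in opposite directions between EpiSCs and d7. The second is the middle of the longest d7 region, at 14.9% in EpiSCs and 63.4% on d7, with 9.11% on d0, 15.7% on d2, 9.62% on d3, 21.5% on d4, 22.5% on d5 and 32.7% on d6. It was replicated in 0 of 26 EpiSCs (exact interval 0 to 13.2%, where 3 cells would be 11.5%), against 57 of the d7 cells (56.4%, 46.2 to 66.3%). The third had 29.8% in EpiSCs and 71.9% on d7, with 67.8% on d0, 55% on d2, 51% on d3, 42.4% on d4, 45% on d5 and 64.9% on d6.

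Cells that the window left out showed most of the same differences. Among cells scoring 20 to 40%, 23 on d7, 42 on d0 and 11 EpiSCs, all 12 earlier regions had a higher share on d7 than on d0, with a mean of 23.7% on d7 and 1.39% on d0. In 1 of the 23 d7 cells chromosome 8 stands apart, and without it 11 of the 12 were higher, with a mean of 21.2% on d7. The exception, chr8:64240001-64640000, then had 1.82% on d7 and 3.33% on d0. The mean score of these cells was 32.3% on d7 and 28.3% on d0, so the d7 cells were further through S phase. The 5 later regions had a mean of 8.48% on d7 and 15% on d0, lower on d7 in 4 of 5, and a mean of 5.08% on d7 without that cell. Among cells scoring 70 to 90%, 49 on d7 and 50 on d0, the earlier regions had a mean of 92.6% on d7 and 78.8% on d0, higher on d7 in 7 of 12, and the later ones 67.9% on d7 and 95.8% on d0, lower on d7 in 5 of 5. These cells had a mean score of 79.3% on d7 and 77.8% on d0. Without 2 of the d7 cells that stand apart, 10 of the 12 earlier regions were higher on d7, with a mean of 94.4%, and the later ones had a mean of 68.7% on d7.

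A logistic midpoint, the score at which a bin is replicated in 50% of cells, used all S-phase cells scoring 5 to 95%. For the longest earlier region it averaged 36.4% on d7 and 69.1% on d0, and 42.7% in EpiSCs. For the later region at 66.4 Mb it averaged 68% on d7 and 43.8% on d0, and 69.9% in EpiSCs. All 12 earlier regions had a lower midpoint on d7, by 13.9 to 32.7 points, and all 5 later ones a higher one, by 19.6 to 31.8 points. These cells include those of the window that chose the regions.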

How the data were processed

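The submitters' processing notes name cutadapt, BWA (0.7.10-r789), Picard and the mm9 build. The authors deposited 1 call per 80 kb bin and cell, a score of 1 where the bin was replicated, -1 where it was not and 0 without data, made against merged G1 controls per the file headers. They also deposited each cell's replication score as a fraction. Read depth was not used here, so the number of bins called stands in for it.

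Shares were computed per bin from the calls of the window cells, where at least 50% of those cells had one. Differences were computed for all 30890 bins and read out for chromosome 8. Coordinates are mm9 and 1-based. No gene or sequence was placed on the bins, since the tables at hand are of another build. The members, the regions and the rules were chosen with earlier results of these data known. Named regions were the 6 largest mean differences in each direction for d7 minus d0 (5 existed for later), 3 in each direction for EpiSC minus d0 and EpiSC minus d7, the 3 longest stretches early or late in every group, and the 2 regions of the first list with the smallest and the largest part of their change made by d4. The steps were tested on simulated data. Alternatives covered the window, size rule, bin filter, cell origin, score matching, the midpoint, the domain rules and cells whose calls rank the bins poorly. Leaving out cells whose chromosome 8 stands apart by over 20 points, and score matching and the narrower window at d2 to d6, were chosen after seeing the data. G1 cells were used in no comparison, and 7 G1 cells with conflicting labels stayed out of every group. Python 3.11.15, numpy, pandas, scipy and matplotlib were used.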

Additional observations from a re-analysis of the deposited data

Results flagged for a closer look

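Signals on chromosome 8 also stood apart in cells that the score window did not hold. The G1-gated cells among them were used in no comparison. Some of the S-phase cells among them did enter the comparisons of cells that the window left out, or the logistic midpoint. In 4 of 79 G1-gated cells, at least 20% of the called chromosome 8 bins were replicated, from 21.1 to 42.8%, while the other autosomes of the same cells were at 0.078 to 6.76%; 2 of these cells were labelled d2, 1 d3 and 1 d7. The median G1-gated cell had 0% of chromosome 8 and 0.17% of the other autosomes replicated, and in no G1-gated cell did the other autosomes reach 20%. Among S-phase cells outside the score window, chromosome 8 was over 20 points above the other autosomes in 5 cells, 3 at d2 and 2 at d7, at 42.8 to 100%, and over 20 points below in 5 cells, 2 at d5 and 1 each at d3, d4 and d7, at 1.40 to 12.6%. Of the 5 cells above, 3 had been marked by the authors' own filters. Other autosomes had such cells too. On chromosome 12, 15 S-phase cells outside the window were over 20 points above the other autosomes and 3 below. On chromosome 3, 2 were above and 8 below. Chromosome 11, with a median lead of 16.2 points in d0 window cells, had 82 above and 1 below. These counts do not take off each group's median, unlike the comparison of autosomes in window cells. By that rule of over 20 points above, 5 G1-gated cells stood apart on chromosome 12 and 3 on chromosome 8. Chromosomes 6, 15 and 18 had 1 such G1-gated cell each. No cause was tested for any of these cells.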

How the results depend on the processing

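The percentages of chromosome 8 bins called moved with the size rule and with the measure. With a difference of 0.2, 16.8% of bins were earlier and 8.82% later for d7 minus d0, 14.6% and 7.38% for EpiSC minus d0, and 7.52% and 7.26% for EpiSC minus d7. With a difference of 0.4, 2.46% were later for d7 minus d0, 4.72% earlier and 2.39% later for EpiSC minus d0, and 1.56% and 2.01% for EpiSC minus d7. With a midpoint shift of 15 points, they were 19.2% and 10.7% for d7 minus d0, 15.2% and 9.39% for EpiSC minus d0, and 8.10% and 9.59% for EpiSC minus d7. No share over all autosomes under the same rule stands beside these values, and the background of the main rule does not apply. No lean of chromosome 8 is read from them. A window of 45 to 65% gave 13.2% earlier for EpiSC minus d0. Present-series cells alone gave 13.7% later for d7 minus d0, from 9 d0 cells. Each other percentage of these comparisons (bins called in 80% of cells, cells off the mean profile left out, cells matched in score, previous-series cells, the left-out bins included) was within 1.5 times the reported one. The differences of the 23 named regions kept their sign under every alternative run. The regions were chosen for large differences in these cells, and each alternative re-used part of them. Keeping the sign was thus largely fixed beforehand and supports nothing. Of the 11 named d7-minus-d0 regions, 7 moved by more than their reported counting interval in present-series cells and 1 in previous-series cells. The present-series values rest on 9 d0 cells, whose own counting error is wider. No difference between the series is read from this. No paired analysis was possible because each group is 1 sample and its cells carry numbers only. With 9 to 66 cells per group and origin, the number of cells sets the width of each interval. The smoothing and thresholds behind each call were the authors' and were not varied here.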
